A study of Mus musculus with 12 samples.

Results

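Fc receptors bind the constant part of antibodies, and paired immunoreceptors are families of related surface receptors in which some members activate the cell and others inhibit it. The levels of 9 such genes are described here in CD11c-enriched cells from tumour-draining lymph nodes of APOE-KO and wildtype mice. The genes were grouped by name and function, and were chosen with earlier results of these data known. They comprise the IgG receptors Fcgr1, Fcgr3, Fcgr4 and Fcgr2b and the signalling adaptors Fcer1g and Tyrobp. The IgE receptor Fcer2a, the neonatal Fc receptor Fcgrt and the gp49 receptor Lilr4b complete the set. These genes are 9 of the 24499 gene symbols in the count table, and all 9 had enough reads to be tested.

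There were 6 libraries from APOE-KO mice, which lack apolipoprotein E, and 6 from wildtype mice, for which the labels name C57BL6. Both groups carried tumours of E0771-cOC cells, derived from the mouse breast cancer line E0771. The draining nodes were removed 9 days after injection, digested with collagenase and DNase, and enriched on beads for CD11c, the integrin Itgax of dendritic cells and some macrophages. RNA was sequenced from its 3′ end. The age and sex of the mice are not given in the labels, and they do not say whether each library is its own animal. The spread that the p-values rest on is therefore that between samples, and it may be technical.

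Libraries held 2381477 to 4898360 counts. Apoe itself had 13 to 30 reads in each APOE-KO library and 838 to 2919 in each wildtype library. Itgax averaged 298 ± 36.9 CPM (counts scaled to a common library total) in APOE-KO and 278 ± 54.0 CPM in wildtype (SD, n = 6 each). The enriched cells also held reads of other cell types, since the 12 B cell markers summed to 766 to 986 CPM in APOE-KO and 937 to 1082 CPM in wildtype, and the 7 T cell markers in the table to 407 to 535 CPM in APOE-KO and 430 to 496 CPM in wildtype. In a principal component analysis of 500 variable genes, the genotypes did not overlap on the first axis (25.4% of the variance). APOE-KO libraries ran from -37.2 to 1.73 there and wildtype libraries from 2.42 to 22, so the gap was narrow. APOE-KO library 5 stood apart on this axis, wildtype library 1 on the second (18.9%) and wildtype library 3 on the third (14.6%). Wildtype library 1 was also the shallowest, and 32.2% of its counts came from the ribosomal RNA gene Rn45s, against 2.71% to 21.6% in the other libraries. In bulk samples such as these, fewer cells of a type and less RNA per cell cannot be told apart.

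Fcgr1, the high-affinity IgG receptor, and Fcgr3 and Fcgr4, which bind IgG in immune complexes, activate the cell. They have no signalling motif of their own and use the adaptor Fcer1g, whose ITAM (an activating tyrosine motif) recruits the kinase Syk. Fcgr2b carries an ITIM, an inhibitory motif that recruits the phosphatase SHIP, and it is the inhibitory IgG receptor of dendritic cells, macrophages and B cells. Tyrobp (DAP12) is a second ITAM adaptor, used by many receptors of myeloid and NK cells. Fcer2a (CD23), the low-affinity IgE receptor, is a C-type lectin best known from B cells and follicular dendritic cells. Fcgrt (FcRn) binds IgG and albumin inside the cell and returns them to the surface. Lilr4b (gp49A) is the neighbour and near relative of the inhibitory receptor Lilrb4a (gp49B), and in humans the related LILRB4 has been reported to bind apolipoprotein E.

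A group of 4 of these genes shares a locus, which the GENCODE vM21 annotation of GRCm38 (the assembly also called mm10) places on chromosome 1. Fcgr2b (170958617 to 170976547, minus strand), Fcgr4 (171018920 to 171029761, plus), Fcgr3 (171051174 to 171064935, minus) and Fcer1g (171229572 to 171234365, minus) lie within 276 kb. Fcgr1 is on chromosome 3 (96282909 to 96293969, minus), Fcer2a on chromosome 8 (3681737 to 3694175, minus), and Lilr4b on chromosome 10 (51480632 to 51486703, plus). Tyrobp (30413760 to 30417585, plus) and Fcgrt (45092990 to 45103851, minus) are on chromosome 7, which also carries the Apoe gene, 10.7 Mb from Tyrobp and 25.4 Mb from Fcgrt.

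The stretches just before the annotated starts of 5 genes are shown because the comparison below turns on Lilr4b and Fcer2a, and because Fcgr1, Fcgr3 and Fcgr4 are the activating receptors that share an adaptor. Each is 120 bases long, 5′ to 3′ on the gene's own strand, from RefSeq's GRCm38.p6. RefSeq lists 2 starts for Fcgr3 and 3 for Fcer2a, of which the first listed is shown, and both starts of Fcgr3 lie inside the longer GENCODE span given above. Capitals mark the letters GAGGAA, the core bound by the myeloid factor PU.1 (on the gene's strand it reads TTCCTC where the match is on the other strand), and TTCNNNGAA, the gamma-activated site bound by STAT factors. In order, the stretches come from chr3:96293970-96294089 (minus strand), chr1:171059404-171059523 (minus), chr1:171018806-171018925 (plus), chr8:3694175-3694294 (minus) and chr10:51480492-51480611 (plus).
Fcgr1: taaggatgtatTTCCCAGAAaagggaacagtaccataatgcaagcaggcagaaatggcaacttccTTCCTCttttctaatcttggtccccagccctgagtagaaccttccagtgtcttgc
Fcgr3: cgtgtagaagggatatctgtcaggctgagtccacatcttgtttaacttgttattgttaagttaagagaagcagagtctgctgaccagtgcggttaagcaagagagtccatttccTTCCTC
Fcgr4: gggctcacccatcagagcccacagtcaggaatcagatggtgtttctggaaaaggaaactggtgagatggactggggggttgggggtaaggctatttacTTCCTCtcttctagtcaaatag
Fcer2a: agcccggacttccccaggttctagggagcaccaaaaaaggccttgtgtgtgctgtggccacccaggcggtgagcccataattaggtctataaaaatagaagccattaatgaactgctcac
Lilr4b: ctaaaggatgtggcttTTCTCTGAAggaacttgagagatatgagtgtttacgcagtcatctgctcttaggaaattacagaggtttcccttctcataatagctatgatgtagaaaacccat

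Both motifs were searched on both strands of the 250 bases before each start, where 8 of the 9 genes had a RefSeq entry (Tyrobp had none). GAGGAA was found before Fcgr1, Fcgr3 and Fcgr4, beginning 55, 6 and 22 bases before the start. For comparison, 23.1% of 27025 windows of this length held it. TTCNNNGAA was found before Fcgr1 (109 bases before the start) and Lilr4b (104 bases), against 7.18% of windows. Neither was found in the windows of Fcgr2b, Fcer1g, Fcer2a or Fcgrt. These matches are letters in a window and were not tied to any binding measured here.

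Of the 9 genes, Lilr4b rose in APOE-KO cells, Fcer2a fell, and the other 7 did not pass the test (edgeR's quasi-likelihood test, Benjamini-Hochberg adjusted p under 0.05 over 10714 genes). Over all tested genes 1.49% passed, 1.08% with higher and 0.411% with lower levels in APOE-KO. The fitted log2 fold change, APOE-KO over wildtype, was above 0 for 6 genes and below 0 for 3, with a median of 0.32, and the median over all tested genes was -0.02. Lilr4b was the 1 gene of the 9 whose libraries did not overlap between the genotypes. Over all tested genes 1.77% did not overlap, 1.23% with APOE-KO above and 0.541% with APOE-KO below.

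**Figure D1:**
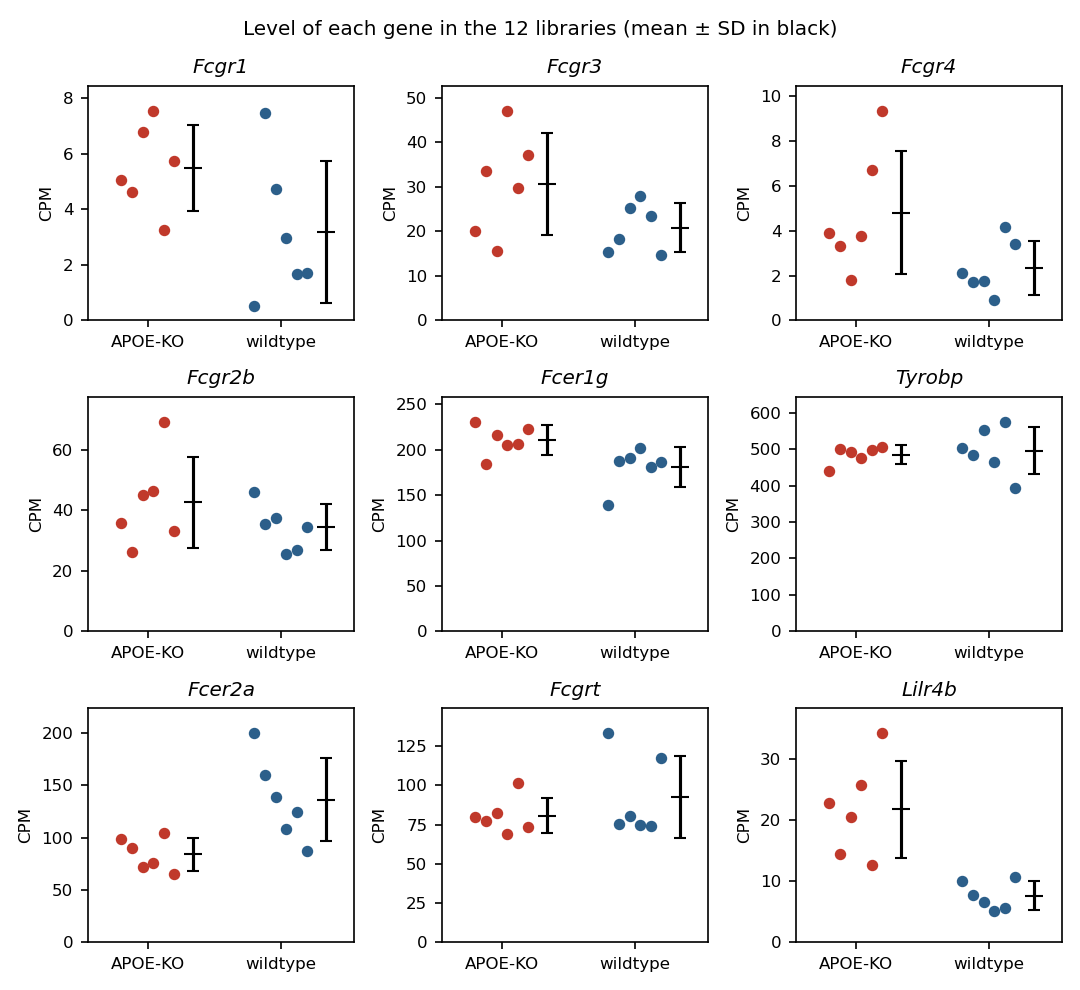
Level of each of the 9 genes in CPM (vertical axes from 0) in the 6 APOE-KO and 6 wildtype libraries, in library order 1 to 6 from left to right, with the mean and SD in black. Lilr4b lies between 12.7 and 34.3 CPM in APOE-KO and between 5.23 and 10.8 CPM in wildtype, and the libraries of the other 8 genes overlap.

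The level order of the 9 genes was the same in both genotypes. Reads of a 3′ library do not grow in number with transcript length, so the order is given in CPM. Mean levels ran from 4.79 CPM (Fcgr4) to 485 CPM (Tyrobp) in APOE-KO, and from 2.34 CPM (Fcgr4) to 495 CPM (Tyrobp) in wildtype. Between these came, from the top, Fcer1g, Fcer2a, Fcgrt, Fcgr2b, Fcgr3, Lilr4b and Fcgr1. Among neighbours in this order, Fcer2a and Fcgrt, Fcgr2b and Fcgr3, and Fcgr1 and Fcgr4 overlapped in both genotypes. Fcgrt and Fcgr2b, and Fcgr3 and Lilr4b, overlapped in APOE-KO, and Fcer1g and Fcer2a, and Lilr4b and Fcgr1, in wildtype. The spread between libraries also differed among the genes. Its coefficient of variation was 5.20% in APOE-KO and 13.1% in wildtype for Tyrobp, and 57.0% in APOE-KO and 51.7% in wildtype for Fcgr4, which had 117 reads in APOE-KO and 50 in wildtype in all.

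Of the activating IgG receptors, none passed the test, and all had fitted changes above 0. Fcgr3 had a lowest, median and highest level of 15.7, 31.7 and 47.0 CPM in APOE-KO and of 14.7, 20.8 and 28.0 CPM in wildtype. In APOE-KO, 4 libraries lay above every wildtype library, and APOE-KO libraries 1 and 3 lay within their range. For Fcgr3 the log2 fold change was 0.54 ± 0.25 (SE; 95% interval 0.02 to 1.06), with an adjusted p of 0.392. The 6 NK cell markers, of a cell type that also carries Fcgr3, summed to 31.8 to 169 CPM in APOE-KO and 74.8 to 246 CPM in wildtype. None of the 5 tested NK markers passed, and all 5 had fitted changes below 0.

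Fcgr1 was scarce, with a lowest, median and highest level of 3.23, 5.38 and 7.52 CPM in APOE-KO and of 0.531, 2.33 and 7.47 CPM in wildtype. The lowest value, in wildtype library 1, was 1 read. All 6 APOE-KO libraries were above the wildtype median, but the groups overlapped, and the log2 fold change of 0.75 ± 0.53 (SE; 95% interval -0.35 to 1.86) had an adjusted p of 0.630 and was 1.16 without wildtype library 2. Fcgr4 had a lowest, median and highest level of 1.78, 3.83 and 9.32 CPM in APOE-KO and of 0.910, 1.94 and 4.17 CPM in wildtype. Its log2 fold change was 1.04 ± 0.55 (SE; 95% interval -0.09 to 2.18), with an adjusted p of 0.460. At these depths neither receptor's interval leaves out a rise of more than 2-fold or a level unchanged between the genotypes.

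The inhibitory receptor Fcgr2b did not pass either, with lowest, median and highest levels of 26.4, 40.5 and 69.1 CPM in APOE-KO and 25.7, 35.1 and 46.2 CPM in wildtype. The groups overlapped over nearly the whole wildtype range, and APOE-KO library 5 was the highest. The log2 fold change of Fcgr2b was 0.32 ± 0.22 (SE; 95% interval -0.13 to 0.76; adjusted p = 0.613), and 0.12 without APOE-KO library 5. Of the 50-base windows at the ends of its annotated coding transcripts, 2.25% were also found in Fcgr3, and none of the windows of Fcgr1, Fcgr3 or Fcgr4 was found in another gene.

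The balance of activating to inhibitory IgG receptors was described as the summed reads of Fcgr1, Fcgr3 and Fcgr4 over those of Fcgr2b in each library. It was 1.06 ± 0.478 in APOE-KO (lowest 0.535, highest 1.58) and 0.817 ± 0.314 in wildtype (lowest 0.391, highest 1.24; SD, n = 6 each). The groups overlapped, and APOE-KO libraries 3 and 5 lay below the wildtype median of 0.807. The difference of mean log2 ratios, APOE-KO minus wildtype, was 0.33, and it was 0.14 without wildtype library 1, 0.19 without APOE-KO library 2 or 6, and 0.50 without APOE-KO library 3. Fcgr3 gave most of the reads above the line, and its own ratio to Fcgr2b was 0.792 ± 0.393 in APOE-KO and 0.650 ± 0.286 in wildtype.

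Both adaptors were abundant and did not pass the test. Fcer1g had a lowest, median and highest level of 184, 212 and 231 CPM in APOE-KO and of 139, 187 and 203 CPM in wildtype. In APOE-KO, 5 libraries lay above every wildtype library, library 2 lay within their range, and wildtype library 1 was well below the other 5 wildtype libraries. For Fcer1g the log2 fold change was 0.21 ± 0.12 (SE; 95% interval -0.04 to 0.47), with an adjusted p of 0.504. Without wildtype library 1 it was 0.15 ± 0.12 (adjusted p = 0.685, edgeR's quasi-likelihood test).

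Tyrobp had a lowest, median and highest level of 439, 495 and 506 CPM in APOE-KO and of 394, 494 and 574 CPM in wildtype. The medians were nearly equal, and every APOE-KO library lay within the wildtype range. The log2 fold change of Tyrobp was -0.03 ± 0.11 (SE; adjusted p = 0.959), and its 95% interval, in fold, ran from 0.834 to 1.15. The ratio of Fcer1g to Tyrobp reads was 0.437 ± 0.0514 in APOE-KO and 0.373 ± 0.0744 in wildtype (SD, n = 6 each), and the groups overlapped.

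Fcer2a, the IgE receptor, was 1.61-fold lower in APOE-KO cells. Its lowest, median and highest levels were 64.8, 82.8 and 104 CPM in APOE-KO and 87.0, 132 and 200 CPM in wildtype. All 6 APOE-KO libraries were below the wildtype median and 3 were below every wildtype library, while wildtype library 6, the lowest of its group, fell among the APOE-KO libraries. The log2 fold change was -0.69 ± 0.18 (SE; 95% interval -1.05 to -0.32), with an adjusted p of 0.0470. Of the 50-base windows at the ends of its annotated coding transcripts, 4.03% were also found in other genes, 197 in number.

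This call sat close to the threshold. It was lost in 8 of the 12 fits that left out 1 library (APOE-KO libraries 1, 2, 3, 4 and 6 and wildtype libraries 1, 2 and 5), where the adjusted p ran up to 0.145. Without wildtype library 1, the library with the most Fcer2a, the log2 fold change was -0.55 ± 0.17 and the adjusted p was 0.126. With limma-voom in place of edgeR the log2 fold change was -0.63 and the adjusted p was 0.0788.

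Marker levels of other cell types are given beside this result. The 12 B cell markers together had a median sum of 928 CPM in APOE-KO and 992 CPM in wildtype, and the ranges overlapped. None of the 11 tested B cell markers passed, 8 had fitted changes below 0, their median log2 fold change was -0.06, and no marker of the list was at 0. With the B cell marker level as a covariate, the log2 fold change of Fcer2a was -0.67 with an adjusted p of 0.0701. Of the follicular dendritic and stromal markers, Ccl19 and Ccl21a had no counted read in any library. How reads with several matches were counted is not stated, so this need not mean that their transcripts were absent. Cr2 averaged 249 ± 36.8 CPM in APOE-KO and 255 ± 56.6 CPM in wildtype, and Cxcl13 passed, with a higher level in APOE-KO. The IgE receptor of mast cells and basophils had almost no reads: its chains Fcer1a and Ms4a2 had 2 and 0 reads in all APOE-KO libraries and 2 and 7 reads in all wildtype libraries.

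The 6 plasmacytoid dendritic cell markers summed to 912 to 1216 CPM in APOE-KO and 1134 to 2615 CPM in wildtype, 3 of the 6 fell (Siglech, Klk1 and Cox6a2), and all 6 had fitted changes below 0, with a median of -0.91. Wildtype library 1 had the highest level of both Fcer2a and these markers. With genotype means removed, Fcer2a and the mean of the markers had a Pearson's r of 0.78 and a Spearman's rho of 0.71 over the 12 libraries, given as a description with no p, since this list was picked from 12 for its value. Pearson's r was 0.67 without wildtype library 1 and 0.53 without the 2 libraries farthest from the median of the markers. For the other genes of the set, Pearson's r with the same markers ran from -0.80 (Fcer1g) to 0.53 (Fcgrt). Fcer2a itself had an r of 0.12 with the B cell markers and of -0.23 with the follicular dendritic and stromal markers. A fit with the level of the plasmacytoid dendritic cell markers as a covariate was an alternative chosen after seeing the data. In it the log2 fold change of Fcer2a was -0.12 and the adjusted p was 0.895, so the call was lost and the value was much smaller. Siglech, 1 of the markers, had a log2 fold change of 0.027 in the same fit. Since the markers themselves had fitted changes below 0, this covariate also carries part of the genotype difference. The fit therefore cannot separate the markers from genotype, and their part in the Fcer2a result was not tested.

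Fcgrt did not pass, with lowest, median and highest levels of 69.1, 78.6 and 101 CPM in APOE-KO and 74.0, 77.9 and 133 CPM in wildtype. The medians were nearly equal, and the higher wildtype mean came from wildtype libraries 1 and 6, which stood above the other wildtype libraries. For Fcgrt the log2 fold change was -0.19 ± 0.17 (SE; 95% interval -0.54 to 0.15; adjusted p = 0.714). It was -0.068 without wildtype library 1 and -0.11 without wildtype library 6. A gene on the other strand, Gm45669, overlaps Fcgrt, and the labels do not say whether reads were counted by strand.

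**Figure D2:**
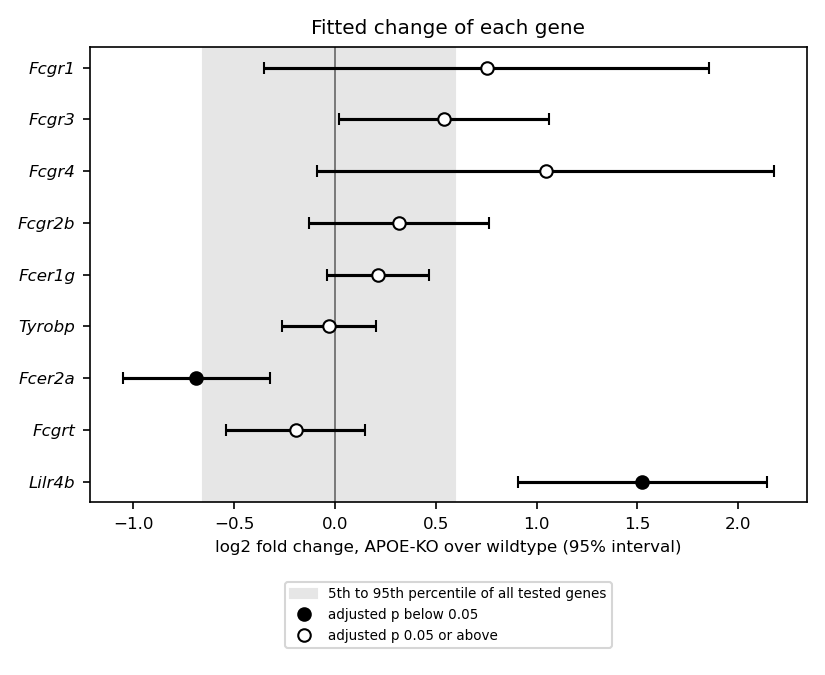
Fitted log2 fold change of each gene, APOE-KO over wildtype (horizontal axis), as a point with its 95% interval; filled points have an adjusted p below 0.05, and the grey band spans the 5th to 95th percentile of all tested genes. Lilr4b (1.52), Fcgr4 (1.04) and Fcgr1 (0.75) lie to the right of the band, and Fcer2a (-0.69) just outside its left edge. The intervals of Fcgr1 and Fcgr4 are the widest, and neither of these genes passed.

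Lilr4b had the largest fitted change of the 9 genes, 2.88-fold higher in APOE-KO. Its lowest, median and highest levels were 12.7, 21.8 and 34.3 CPM in APOE-KO and 5.23, 7.23 and 10.8 CPM in wildtype, from 511 reads in APOE-KO and 161 in wildtype. Every APOE-KO library lay above every wildtype library. The log2 fold change was 1.52 ± 0.30 (SE; 95% interval 0.91 to 2.14), with an adjusted p of 0.00620, rank 58 of the 10714 tested genes by p. The call held in all 12 fits that left out 1 library, where the log2 fold change ran from 1.35 to 1.65 and the adjusted p from 0.00260 to 0.0337.

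In these nodes the marker sums of macrophages, monocytes and dendritic cells, which can carry gp49 receptors, overlapped between the genotypes. The 12 macrophage markers summed to 832 to 1083 CPM in APOE-KO (median 1002) and 964 to 1168 CPM in wildtype (median 1022). The 8 monocyte markers summed to 1965 to 2191 CPM in APOE-KO (median 2113) and 1711 to 2171 CPM in wildtype (median 1857). The 9 dendritic cell markers summed to 4811 to 5701 CPM in APOE-KO (median 5195) and 4263 to 5367 CPM in wildtype (median 4702). The monocyte and dendritic cell medians were thus higher in APOE-KO. Neutrophil markers had median sums of 29.1 CPM in APOE-KO and 29.2 CPM in wildtype. Those of mast cells and basophils had 63.7 CPM in APOE-KO and 80.2 CPM in wildtype. Within the macrophage list, C1qb and Cd5l rose and Mrc1, Timd4 and Marco fell, of 10 tested, and Vsig4 had no read. Lyz2 rose among 7 tested monocyte markers, and Sirpa and Ccr7 among 9 dendritic cell markers. The part of these markers in the Lilr4b result was not tested.

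Epithelial cell markers were at low levels. The 13 markers summed to 8.90 to 92.7 CPM in APOE-KO and 77.1 to 130 CPM in wildtype, Wap had no read, and of the 6 tested Cdh1 fell while the other 5 did not pass, all 6 with fitted changes below 0. With the epithelial marker level as a covariate, the log2 fold changes were 1.51 for Lilr4b (adjusted p = 0.206) and -0.65 for Fcer2a (adjusted p = 0.944), so neither gene passed, and 32 genes passed in all. With the plasmacytoid dendritic cell markers as the covariate, the log2 fold change of Lilr4b was 1.42 and did not pass either (adjusted p = 0.205), and 48 genes passed in all. The ranges of the epithelial marker sums of the genotypes overlap only between 77.1 and 92.7 CPM. All tested markers of both lists had fitted changes below 0, so each covariate carries part of the genotype difference.

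Lilrb4a, the inhibitory neighbour of Lilr4b, lies 4252 bases further on the same strand (chromosome 10, 51490956 to 51496611). It averaged 36.1 ± 7.03 CPM in APOE-KO and 25.6 ± 8.90 CPM in wildtype, and its fitted change of 0.48 ± 0.23 on the log2 scale (SE) did not pass (adjusted p = 0.399). The ratio of Lilr4b to Lilrb4a reads was 0.589 ± 0.108 in APOE-KO (lowest 0.429, highest 0.726) and 0.374 ± 0.278 in wildtype (lowest 0.138, highest 0.905; SD, n = 6 each). All 6 APOE-KO ratios were above those of wildtype libraries 2 to 6, while the ratio in wildtype library 1, from 21 reads of Lilrb4a, was the highest of all. The difference of mean log2 ratios, APOE-KO minus wildtype, was 0.91 with all 12 libraries and 1.22 without wildtype library 1.

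The counts of this pair carry an uncertainty of their own. Of the 50-base windows in the last 500 bases of the annotated coding transcripts of Lilr4b, 23.0% were also found in Lilrb4a, and 28.6% of those of Lilrb4a were also found in Lilr4b. A longer annotated gene, Gm49339, spans both on the same strand. Counting it as well, 90.6% of the windows of Lilrb4a were also found in another gene, so its level and the ratio above are uncertain. The labels do not say how reads with several matches, or in overlapping genes, were counted.

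**Figure D3:**
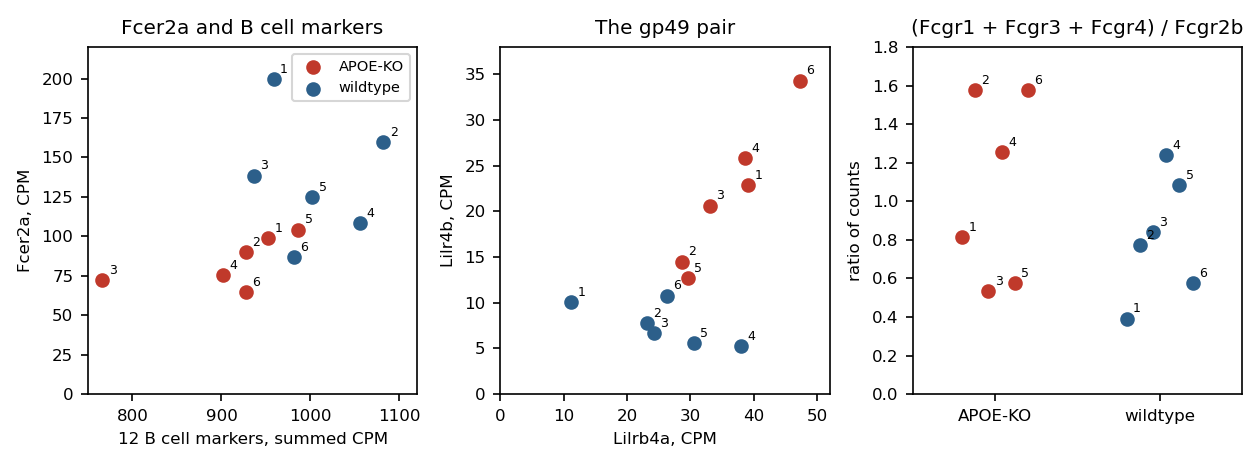
Left, Fcer2a against the summed level of 12 B cell markers; middle, Lilr4b against Lilrb4a (all in CPM); right, the ratio of summed Fcgr1, Fcgr3 and Fcgr4 reads to Fcgr2b reads; each point is 1 library with its number. Fcer2a is lower in most APOE-KO libraries, Lilr4b is above 12 CPM in every APOE-KO library and below 11 CPM in every wildtype library over overlapping levels of Lilrb4a, and the ratios overlap.

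The other genes of the same families and pathways were counted in 9 lists, which together hold 150 symbols, of which 89 were tested. Of these, 2 passed with higher levels in APOE-KO (Sirpa and Clec4e) and 1 with a lower level (Siglech), 3.37% of those tested, and the median log2 fold change was -0.01. In the lists of other Fc receptors (5 tested), other LILR, PIR and gp49 genes (4), other adaptors (7), ITAM signalling (24), ITIM signalling (11) and ligands (2), none passed. Their median log2 fold changes were 0.07, 0.29, 0.10, -0.03, -0.05 and -0.07 in that order. Of the ligand list, 12 immunoglobulin genes had no symbol in the count table and were not analysed here. The 2 ligand genes tested were Jchain and Cr2, so no immunoglobulin heavy or light chain gene was tested.

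Sirpa, the inhibitory receptor for CD47 on dendritic cells and macrophages, rose in APOE-KO by 0.48 ± 0.12 (SE) on the log2 scale. The lowest, median and highest levels were 311, 351 and 384 CPM in APOE-KO and 198, 254 and 293 CPM in wildtype, and the groups did not overlap. The adjusted p was 0.0382, and the call was lost in 9 of the 12 fits that left out 1 library (all but those without wildtype libraries 3, 4 and 6), with an adjusted p of up to 0.0860. Of the 22 tested genes in its list, the other paired immunoreceptors, it alone passed, and the median log2 fold change was 0.01. Cd300c in the same list had 4.16 ± 0.911 CPM in APOE-KO and 11.4 ± 6.74 CPM in wildtype (SD, n = 6 each), with a log2 fold change of -1.41 and an adjusted p of 0.124.

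In the list of receptors grouped with Fcer1g or Tyrobp, 1 of 16 tested genes rose and 1 fell. The list also holds Clec7a (described below), which does not need these adaptors. The fitted change was above 0 for 7 of the 16 and below 0 for 9, with a median of -0.10. Clec4e (Mincle), a C-type lectin that pairs with Fcer1g, rose 3.39-fold. Over libraries its lowest, median and highest levels were 16.7, 20.3 and 23.1 CPM in APOE-KO and 1.36, 7.54 and 9.64 CPM in wildtype, with no overlap between the genotypes (log2 fold change 1.76 ± 0.37 SE, adjusted p = 0.0128). Siglech, a receptor of plasmacytoid dendritic cells that pairs with Tyrobp, was 2.20-fold lower in APOE-KO. Its lowest, median and highest levels were 106, 140 and 176 CPM in APOE-KO and 165, 239 and 669 CPM in wildtype, with a log2 fold change of -1.14 ± 0.24 (SE; adjusted p = 0.0133). Without wildtype library 1, which held the highest level, the log2 fold change was -0.75 and the adjusted p was 0.0190, and with robust dispersion estimates over all 12 libraries the adjusted p was 0.0865. In the Siglec list, 1 of 5 tested genes fell and all 5 had fitted changes below 0, with a median of -0.80.

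A further 3 genes come from the list of receptors grouped with Fcer1g or Tyrobp, outside those that passed. They were chosen after their values were seen, because they were high in APOE-KO. Trem2, a lipid-binding receptor that signals through Tyrobp, had 6 to 31 reads in each APOE-KO library and 0 to 3 in each wildtype library, 114 and 5 reads in all. It was too scarce for the main test. Fitted without a filter on low counts, its log2 fold change was 4.24 with an adjusted p of 0.00494. Clec4d, a C-type lectin and partner of Clec4e, had 12 to 37 reads in each APOE-KO library and 0 to 16 in each wildtype library, and its log2 fold change was 2.30 ± 0.65 (SE; adjusted p = 0.0850). Clec7a (Dectin-1), a receptor for fungal glucans that signals through its own tail and does not need these adaptors, averaged 336 ± 60.8 CPM in APOE-KO and 226 ± 53.8 CPM in wildtype (SD, n = 6 each), with a log2 fold change of 0.57 and an adjusted p of 0.0557.

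No gene of the ITAM list passed, and the smallest p values were those of Gab2, a scaffold protein (71.2 ± 10.4 CPM in APOE-KO and 56.5 ± 11.1 CPM in wildtype, adjusted p = 0.416), and Vav3, a signalling protein phosphorylated after receptor engagement (log2 fold change -0.41, adjusted p = 0.479). In the ITIM list they were those of Ptpn11, the phosphatase SHP-2 (70.7 ± 13.4 CPM in APOE-KO and 93.9 ± 12.0 CPM in wildtype, adjusted p = 0.229), and Dok1, an inhibitory adaptor (89.9 ± 13.7 CPM in APOE-KO and 71.4 ± 12.5 CPM in wildtype, adjusted p = 0.381; SD, n = 6 each). In the remaining lists with no passing gene, the smallest p values belonged to genes with adjusted p above 0.3: Fcrla and Fcrls, Lilrb4a and Tarm1, Hcst and Cd79b, and Jchain and Cr2. Cd33, the second gene of the Siglec list by p, had 7.83 ± 1.54 CPM in APOE-KO and 13.9 ± 2.75 CPM in wildtype, with no overlap between the genotypes and an adjusted p of 0.216.

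**Figure D4:**
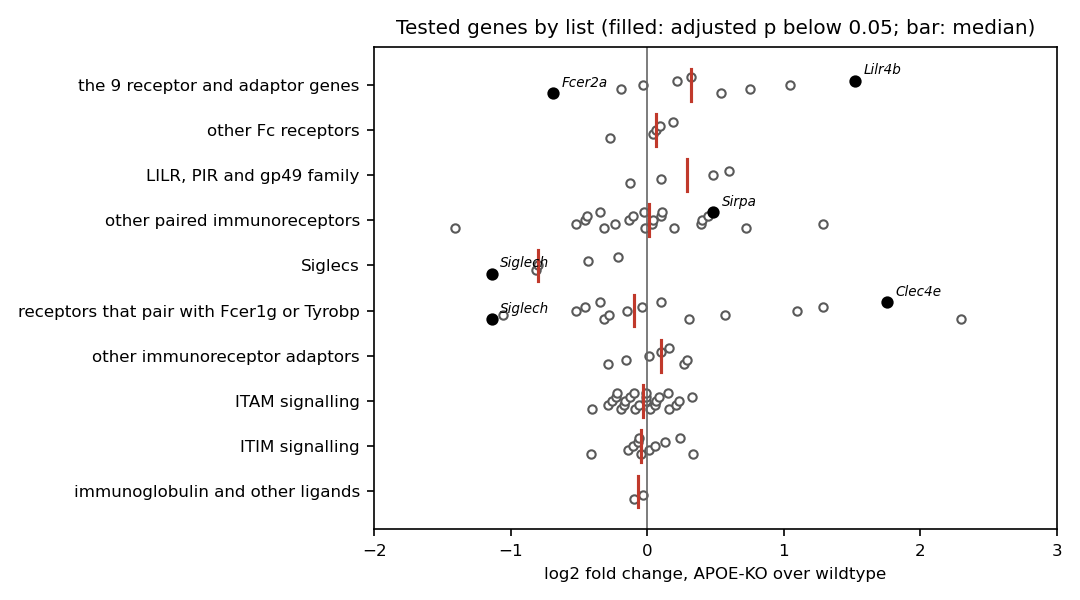
Fitted log2 fold change, APOE-KO over wildtype (horizontal axis), of each tested gene in the 9 receptor and adaptor genes (top row) and in 9 lists of related genes; filled points have an adjusted p below 0.05 and are named, and the red bar is the median of the list. Clec4e (1.76) and Lilr4b (1.52) are the named points farthest to the right, and Siglech (-1.14), which is in 2 lists, is the one farthest to the left.

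Likeness between genes was measured over the 12 libraries after each genotype's mean had been removed, as a correlation of log2 CPM among 6174 genes that averaged 20 CPM or more. It is given as a description with no p, since the genes named are the highest of that number and share depth and library. For Lilr4b the closest were Xpo1 (Pearson's r = 0.87, Spearman's rho = 0.90), Rab21 (0.85 and 0.78) and Cnot7 (0.80 and 0.83). Leaving out the 2 libraries farthest from the median of Lilr4b gave r of 0.78, 0.82 and 0.69 for the same genes. For Fcer2a they were G2e3 (r = 0.88, rho = 0.80), Srpk3 (0.86 and 0.89) and Rnf40 (0.85 and 0.89), with r of 0.69, 0.84 and 0.75 without the 2 farthest libraries. Over the 9 genes and their 27 closest genes r ran from 0.80 to 0.94, and 14 of the 27 were also among the closest by Spearman's rho.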

How the data were processed

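The 9 genes and the lists were chosen with earlier results of these data known. The authors deposited whole-number read counts per gene symbol, not normalised. Per the submitters' processing notes reads were handled with STAR 2.7.8a and featureCounts 1.5.1 on build mm10 (also listed: DESeq2 1.4, R 4.1.0). The annotation, strand setting and treatment of multiple matches are not stated in the labels. Of 24499 symbols, 7573 had no count. Genes were kept with filterByExpr (minimum count 10, total 15), which left 10714. Counts were scaled by TMM and tested on genotype with edgeR 4.0.16 (glmQLFit and glmQLFTest, R 4.3.3), with Benjamini-Hochberg adjustment at 0.05; the SE is the log2 fold change over the root of F. CPM uses the scaled sizes. In 1 library 3 counts are 0.525 to 1.59 CPM. The intervals given are those of log2 fold changes. They rest on the SE of the fit and so include the spread between libraries. No 2 libraries were duplicates. Same-numbered libraries did not deviate together (residual correlations -0.08 to 0.02), so no replicate term was used. All members were named; in each list every passing gene was named or, with fewer than 2, also those with the smallest p. Alternatives were other size factors, filters, DESeq2 1.42.0, limma-voom (limma 3.58.1), robust dispersion, a replicate block, marker covariates and leaving out each library.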

Additional observations from a re-analysis of the deposited data

Results flagged for a closer look

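Among 54 groups of 6 libraries checked for a value far from the others (the members and the named list genes), 2 were found, which is no more than the about 1 in 20 that chance gives. Both were in wildtype library 1. Fcer1g was at 139 CPM there, below the 182 to 203 CPM of the other wildtype libraries. Siglech was at 669 CPM there, above the 165 to 298 CPM of the other wildtype libraries.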

How the results depend on the processing

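Lilr4b passed under every alternative except the epithelial covariate (log2 fold change 1.51, adjusted p = 0.206) and the plasmacytoid dendritic cell covariate (1.42, adjusted p = 0.205), and ran from 1.35 to 1.65 when each library was left out. Fcer2a was not past the threshold with limma-voom (-0.63), the B cell covariate (-0.67) or the epithelial (-0.65) or plasmacytoid dendritic cell covariate (-0.12), and ran from -0.79 to -0.55 (adjusted p 0.0186 to 0.145) with each library left out. Of the 9 genes, 1 passed with limma-voom, 1 with the B cell covariate and 0 with either the epithelial or the plasmacytoid dendritic cell covariate, and 1 to 2 with each library left out. The count over all genes, 160, was 290 with DESeq2 and 32 with the epithelial and 48 with the plasmacytoid dendritic cell covariate, and ran from 98 (without APOE-KO library 3) to 227 with each library left out. Of the list genes, 3 passed; 5 did without a filter (also Clec7a and Trem2), 6 with DESeq2 (also Clec4d, Clec7a and Cd300c), 5 with limma-voom (also Clec4d and Clec7a) and 0 with either of those covariates, and 2 to 5 with each library left out (5 without wildtype library 3). The direction turned for Tyrobp (-0.087 to 0.023), Jchain (-0.37 to 0.085) and Cr2 (-0.082 to 0.087) with a library left out, for Cr2 with the B cell (0.032) and epithelial (0.044) covariates, and for Fcrls (-0.046) and Tarm1 (-0.20) with the epithelial covariate, each a gene that never passed. With the plasmacytoid dendritic cell covariate, chosen after seeing the data, it turned for Fcer1g (-0.021), Tyrobp (0.081), Fcgrt (0.10), Fcrls (-0.31), Lilrb4a (-0.24) and Siglech (0.027), itself one of the markers. By Spearman's rho 14 of 27 closest genes were the same. The cause of these changes was not tested.

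The replicate numbers do not pair the libraries. With the replicate block 100 genes passed, Lilr4b (1.48, adjusted p = 0.0215) and Fcer2a (-0.66, adjusted p = 0.0489) among them, and Sirpa did not (adjusted p = 0.145). Depth limits Fcgr1 and Fcgr4 most, with 50 to 123 reads per genotype.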
